A study of Mus musculus with 6 samples.

Results

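The serotonin receptors described here are 10 genes, Htr1a, Htr1b, Htr1f, Htr2a, Htr2c, Htr3a, Htr4, Htr5a, Htr6 and Htr7, chosen by symbol and found by Ensembl identifier among 37620 genes counted in the adult mouse hippocampus. Reads were counted in 3 mice labelled miR17-92 knockout and 3 labelled wildtype. All were of strain C57BL/6 and 13 weeks old, and each came from a different litter. The labels do not give the deleted bases, the promoter or driver line, or the cells in which the deletion acts. The miR-17-92 cluster holds microRNAs that are cut from 1 host transcript, Mir17hg, and the series title ties it to adult hippocampal neurogenesis, anxiety and depression. The levels of the serotonin receptors were compared between knockout and wildtype hippocampus.

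Serotonin reaches the hippocampus along fibres from the raphe nuclei of the brainstem, so the cells that make it lie outside the dissected tissue while the receptors are made inside it. All mammalian serotonin receptors except the Htr3 type are G protein-coupled. Receptors coupled to Gi/o (Htr1a, Htr1b, Htr1f, Htr5a) lower cyclic AMP and open potassium channels, those coupled to Gq (Htr2a, Htr2c) act through phospholipase C, and those coupled to Gs (Htr4, Htr6, Htr7) raise cyclic AMP. Htr3a encodes a subunit of a cation channel. Htr1a in the hippocampus is a main site of study for antidepressant drugs that raise serotonin.

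The microRNAs of the cluster recognise messages by their seed, bases 2 to 8 from the 5' end. They are shown because they are what the knockout removes by its label, and because their seeds were searched for in the receptor messages. The seed is in capitals, the sequences are those of RefSeq on GRCm38.p6, and all 6 were matched by name on the plus strand of chromosome 14.
miR-17-5p (chr14:115043684-115043706): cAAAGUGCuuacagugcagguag
miR-20a-5p (chr14:115044183-115044205): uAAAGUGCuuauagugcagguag
miR-18a-5p (chr14:115043867-115043889): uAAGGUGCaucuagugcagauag
miR-19a-3p (chr14:115044048-115044070): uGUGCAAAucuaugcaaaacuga
miR-19b-3p (chr14:115044358-115044380): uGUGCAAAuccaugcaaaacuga
miR-92a-3p (chr14:115044476-115044496): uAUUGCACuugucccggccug
The first pair shares 1 seed and the miR-19 pair another, so the 6 microRNAs carry 4 seeds.

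Of the 10 receptors, 2 held a site of 7 bases complementary to a seed in their longest annotated 3' UTR (GENCODE M21, GRCm38). The motifs, read on the message strand only, were GCACTTT for miR-17-5p and miR-20a-5p, GCACCTT for miR-18a-5p, TTTGCAC for miR-19 and GTGCAAT for miR-92a-3p. In 14542 tested genes with a 3' UTR, 35.03% held at least 1 of the 4, and 14.88%, 10.23%, 13.77% and 7.98% held the motifs in that order. The sites found are printed in message sense with the match in capitals.
Htr1b, miR-17-5p and miR-20a-5p (chr9:81629699-81629727, minus strand): atgaaaaaaatGCACTTTcttaataaaaa
Htr1b, miR-19 (chr9:81630241-81630269, minus strand): tttgataatcaTTTGCACtctctcccatc
Htr2a, miR-17-5p and miR-20a-5p (chr14:74708699-74708727, plus strand): acatgttccatGCACTTTattcaacattt
The 3' UTRs searched were 3101 bases long in Htr1b and 3097 bases in Htr2a. The other 8 receptors, with 3' UTRs of 312 bases (Htr6) to 4002 bases (Htr5a), held none of these letters. A match is a description of the sequence and was not tested as a binding site.

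Gene counts per library ran from 26439693 to 57246827, and between 44 and 3212 of those reads fell on a receptor. The host transcript Mir17hg stood at 0.933, 1.33 and 0.649 CPM (reads scaled to library size, with TMM factors) in knockout libraries 1 to 3, against 1.07, 1.07 and 1.13 CPM in wildtype libraries 1 to 3. Its log2 fold of -0.22 had an adjusted p of 0.813 with edgeR, it was 0.04 without knockout replicate 3, and since the deleted bases are not given it checks no label. Of 8 markers of hippocampal neurons, among them Prox1, Wfs1 and Grik4, all were read in every library, with summed levels of 7502 to 9111 CPM in knockout and 7617 to 8166 CPM in wildtype. Serotonergic neurons of the raphe were close to absent by their markers: Tph2, Slc6a4 and Fev summed to between 0.932 and 1.07 CPM in knockout and between 1.03 and 1.16 CPM in wildtype, and Fev had 0 reads in 5 of the 6 libraries.

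No receptor passed the test between the genotypes. Of the 10 receptors, 0 had an adjusted p under 0.05 with edgeR, 0 with DESeq2 (which gave no adjusted p for Htr1b) and 0 with limma-voom. At an unadjusted p under 0.05 there were 0 of 10 with edgeR and 0 of 10 with DESeq2. Over all 16432 genes tested, 0% were called by edgeR at an adjusted p under 0.05, 10.6% had an unadjusted p under 0.05 (5.05% higher and 5.58% lower in knockout), and 0.992% were called by DESeq2. Log2 folds of knockout over wildtype were positive for 7 receptors and negative for 3, with a median of 0.10, where 50% of all genes tested had a positive fold and the median was near 0. Sizes of fold were small: the median absolute log2 fold was 0.13 for the receptors and 0.08 for all genes tested. The adjusted p of the receptors lay between 0.516 (Htr2a) and 0.866 (Htr1b) with edgeR.

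**Figure D1:**
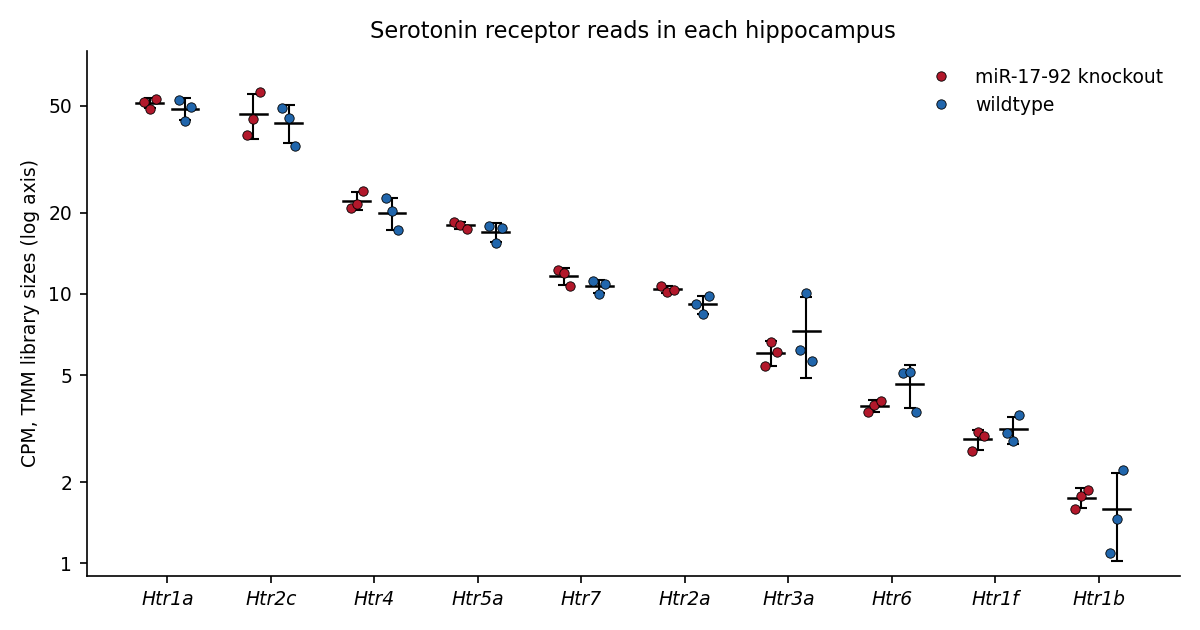
CPM of each receptor in every library (log axis), receptors ordered by their mean, with knockout points left of wildtype points. Horizontal bars are group means and error bars SD (n = 3 each); Htr2a is the receptor whose 3 knockout points all lie above its 3 wildtype points.

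How far the data limit a difference varied between receptors. The 95% interval of the fold stayed between 0.94 and 1.18 for Htr1a, between 0.941 and 1.199 for Htr5a, between 0.944 and 1.253 for Htr7, between 0.94 and 1.30 for Htr4 and between 0.99 and 1.31 for Htr2a. It was wider for Htr2c (0.86 to 1.36), Htr1f (0.73 to 1.16), Htr6 (0.65 to 1.06), Htr3a (0.59 to 1.14) and Htr1b (0.74 to 1.66). For 7 receptors the interval lay within a 1.5-fold change in either direction, and for all 10 it lay within a 2-fold change. In whole tissue, fewer cells of a type and less RNA per cell cannot be told apart, and a difference limited to a few cells would move these values little.

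**Figure D2:**
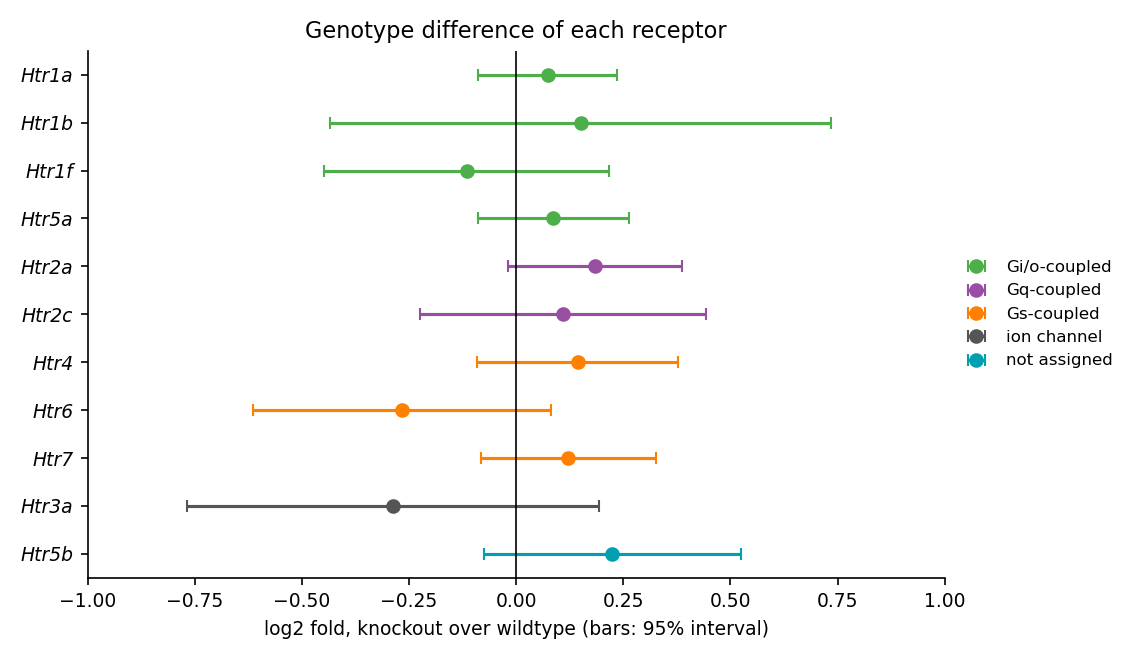
Log2 fold of knockout over wildtype for the 10 receptors and Htr5b (points) with the 95% interval from edgeR's quasi-likelihood fit (bars), coloured by G protein coupling. Every interval includes 0, and the intervals of Htr1b and Htr3a are the widest.

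Htr1a, the Gi/o-coupled receptor of pyramidal and granule cells, had the highest mean CPM of the 10, though Htr2c was higher in knockout replicate 3 (56.3 CPM). Htr1a measured 51.7, 48.7 and 53.0 CPM in knockout libraries 1 to 3, against 52.7, 43.7 and 49.6 CPM in wildtype libraries 1 to 3. The groups overlap, with the lowest value in wildtype replicate 2 and the highest in knockout replicate 3. The means were 51.1 ± 2.2 CPM in knockout and 48.7 ± 4.6 CPM in wildtype (SD, n = 3 each), a log2 fold of 0.07 (SE 0.07, edgeR adjusted p = 0.746). The fold was 0.00 without wildtype replicate 2.

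Htr5a, also Gi/o-coupled, held 18.57, 17.997 and 17.48 CPM in knockout libraries, against 17.85, 15.41 and 17.64 CPM in wildtype libraries. Wildtype replicate 2 is again the lowest, and the other 5 libraries lie between 17.48 and 18.57 CPM. Its log2 fold was 0.09 (SE 0.08, edgeR adjusted p = 0.717), and 0.02 without wildtype replicate 2. Htr1a and Htr5a varied least of the 10 receptors, with coefficients of variation over the 6 libraries of 6.97% and 6.22%, against a median of 8.07% over all genes tested.

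The other Gi/o-coupled receptors were low. Htr1f, a relative of Htr1b, had 2.61, 3.08 and 2.98 CPM in knockout libraries, against 3.04, 2.83 and 3.55 CPM in wildtype libraries, a log2 fold of -0.12 (SE 0.15, edgeR adjusted p = 0.812). The groups overlap, and the fold of Htr1f ran from -0.19 without wildtype replicate 2 to -0.03 without wildtype replicate 3, and was -0.19 with GC and length offsets. Htr1b is known as the receptor that serotonin axon terminals use to hold back their own release. The cell bodies of those terminals lie in the raphe, whose markers were close to absent here, so the values below do not measure that receptor pool. Htr1b had 1.59, 1.78 and 1.88 CPM in knockout libraries, against 1.10, 1.46 and 2.23 CPM in wildtype libraries. The 3 wildtype values of Htr1b enclose all 3 knockout values. These rest on 47 to 107 reads per knockout library and 44 to 71 reads per wildtype library, and the annotation has a gene on the opposite strand, D430036J16Rik, over 852 bases of its exons. The log2 fold of Htr1b was 0.15 (SE 0.26, edgeR adjusted p = 0.866), -0.06 without wildtype replicate 1 and 0.45 without wildtype replicate 3. Its 2 seed sites, for the miR-17 and the miR-19 seed, thus stood beside a difference within the spread of the wildtype mice.

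Htr2a, the Gq-coupled receptor on which serotonergic hallucinogens act, was the receptor with the smallest p. It held 10.7, 10.1 and 10.3 CPM in knockout libraries, against 9.17, 8.46 and 9.85 CPM in wildtype libraries. All 3 knockout values lie above all 3 wildtype values, with knockout replicate 2 and wildtype replicate 3 the closest pair. Among the 10 receptors it was the 1 without overlap, where 16.6% of all genes tested did not overlap and 8.29% did so with knockout higher. The means were 10.4 ± 0.31 CPM in knockout and 9.16 ± 0.70 CPM in wildtype (SD, n = 3 each). The log2 fold was 0.18 (SE 0.09) and did not pass with edgeR, whose unadjusted p was 0.0706 and adjusted p 0.516. Ordered by p, it was number 2243 of the 16432 genes tested. Its 3' UTR holds the GCACTTT site printed above, a motif found in 14.88% of 3' UTRs of all lengths. Over all tested genes with a 3' UTR, the median log2 fold was 0.012 with that motif and -0.002 without it. A link between the site and the level of Htr2a was not tested.

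Htr2c, the other Gq-coupled receptor, known for its editing by ADAR enzymes and its very high level in choroid plexus, varied more between mice than between genotypes. It measured 38.8, 44.6 and 56.3 CPM in knockout libraries, against 49.2, 45.2 and 35.5 CPM in wildtype libraries. Knockout replicate 3 was the highest library and wildtype replicate 3 the lowest, and the range within either genotype exceeds the difference of their means. The means were 46.6 ± 8.9 CPM in knockout and 43.3 ± 7.0 CPM in wildtype (SD, n = 3 each), a log2 fold of 0.11 (SE 0.15, edgeR adjusted p = 0.825) that turned to -0.06 when knockout replicate 3 was left out and to -0.01 when wildtype replicate 3 was. Choroid plexus markers were read beside it. Ttr, the transthyretin gene that choroid plexus expresses most, had 1.56, 4.14 and 5.73 CPM in knockout libraries, against 39.0, 4.87 and 2.48 CPM in wildtype libraries, and the 10 choroid plexus markers summed to 39.0, 47.2 and 38.9 CPM in knockout libraries, against 74.5, 37.4 and 33.1 CPM in wildtype libraries. The sum was lowest in wildtype replicate 3, as Htr2c was, and highest in wildtype replicate 1, where Htr2c was second to knockout replicate 3. Kl was the largest part of the sum in every library except wildtype replicate 1, where Ttr was. Kl had 28.3, 32.8 and 23.3 CPM in knockout libraries, against 24.7, 22.1 and 21.6 CPM in wildtype libraries. Like the sum, Kl was lowest in wildtype replicate 3. Prlr and Sostdc1 added less. Prlr had 4.57, 5.51 and 4.89 CPM in knockout libraries, against 5.56, 6.08 and 5.12 CPM in wildtype libraries. Sostdc1 had 2.92, 1.97 and 2.93 CPM in knockout libraries, against 3.07, 2.38 and 2.17 CPM in wildtype libraries. Unlike Kl and the sum, Ttr and Prlr were lowest in knockout replicate 1 and Sostdc1 in knockout replicate 2. The other 6 markers, Folr1, Clic6, Kcnj13, Otx2, Aqp1 and Slc4a5, stayed under 1 CPM in all 6 libraries. The part of choroid plexus in the spread of Htr2c was not tested. Once GC content and length entered the fit as offsets, the log2 fold of Htr2c was 0.05. The enzymes Adar and Adarb1, which edit the Htr2c message, had log2 folds of -0.03 and -0.01 (edgeR adjusted p of 0.798 and 0.939), and gene counts do not show editing itself.

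Htr4, a Gs-coupled receptor of pyramidal and granule cells, followed the order of Htr2c at both ends. It measured 20.8, 21.5 and 24.1 CPM in knockout libraries, against 22.7, 20.3 and 17.3 CPM in wildtype libraries. As for Htr2c, knockout replicate 3 is the highest, wildtype replicate 1 the second and wildtype replicate 3 the lowest. The log2 fold was 0.14 (SE 0.10, edgeR adjusted p = 0.653), 0.05 without wildtype replicate 3 and 0.24 without wildtype replicate 1. A list of 6 markers higher in ventral than in dorsal hippocampus (Trhr, Grp, Gpc3, Nr2f2, Dcn, Cyp26b1) summed to 114, 112 and 143 CPM in knockout libraries, against 124, 115 and 112 CPM in wildtype libraries. Knockout replicate 3 was also the highest in that sum. Much of it is Dcn, which meningeal fibroblasts express too, at 63.8 CPM in knockout replicate 3 and between 41.9 and 49.2 CPM in the other 5 libraries. Without Dcn, a choice made after its values were seen, the sums were 70.7, 67.3 and 78.8 CPM in knockout libraries, against 75.8, 65.9 and 69.9 CPM in wildtype libraries. The part of the dissected region in the spread of Htr2c and Htr4 was not tested.

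**Figure D3:**
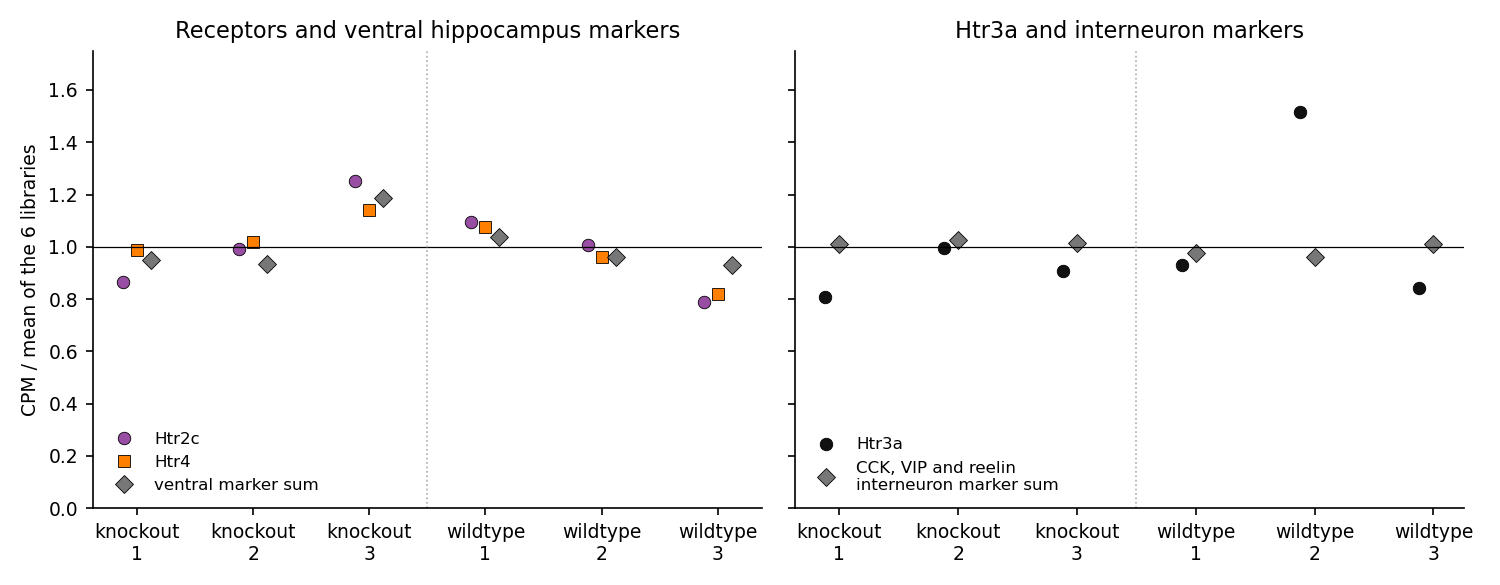
CPM of Htr2c, Htr4 and the summed ventral hippocampus markers (left) and of Htr3a and the summed CCK, VIP and reelin interneuron markers (right) in each library, divided by the mean of the 6 libraries. Knockout replicate 3 stands at 1.253 for Htr2c, 1.14 for Htr4 and 1.19 for the ventral markers, and wildtype replicate 2 at 1.52 for Htr3a and 0.96 for the interneuron markers.

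Htr7, a Gs-coupled receptor linked to circadian timing and to memory, had 12.3, 11.9 and 10.7 CPM in knockout libraries, against 11.14, 10.011 and 10.86 CPM in wildtype libraries. Knockout replicates 1 and 2 lie above every wildtype library and knockout replicate 3 among them, and the log2 fold of 0.12 (SE 0.09) had an edgeR adjusted p of 0.664 and lay between 0.08 and 0.18 when 1 library was left out. Htr6, a Gs-coupled receptor found almost only in brain, leaned the other way. It had 3.64, 3.87 and 4.01 CPM in knockout libraries, against 5.08, 5.12 and 3.64 CPM in wildtype libraries. Wildtype replicates 1 and 2 stand above the other 4 libraries, while wildtype replicate 3 lies with the knockouts. The log2 fold was -0.27 (SE 0.15, edgeR adjusted p = 0.578), and -0.41 without wildtype replicate 3. Htr6 has the most GC-rich transcript of the 10, at 63.1% against 39.4% (Htr1f) to 53.4% (Htr3a) in the others, and once GC content and length entered the fit as offsets its log2 fold was -0.13 (edgeR adjusted p = 0.892).

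Htr3a, the channel subunit that marks interneurons from the caudal ganglionic eminence, was set apart by 1 library. It had 5.38, 6.64 and 6.06 CPM in knockout libraries, against 6.21, 10.1 and 5.62 CPM in wildtype libraries. Wildtype replicate 2 stands alone, and the other 5 libraries lie between 5.38 and 6.64 CPM. The means were 6.03 ± 0.63 CPM in knockout and 7.32 ± 2.5 CPM in wildtype (SD, n = 3 each). The log2 fold of -0.29 (SE 0.21, edgeR adjusted p = 0.660) became 0.03 without wildtype replicate 2. A list of 11 genes read in CCK, VIP and reelin interneurons, among them Cck, Vip, Cnr1, Reln and Gad1, was summed. It came to 1226, 1244 and 1229 CPM in knockout libraries, against 1183, 1162 and 1223 CPM in wildtype libraries. Its largest member, Gad1, at a mean of 365 CPM in knockout and 346 CPM in wildtype, is not particular to these interneurons. The sum did not overlap between the genotypes and was lowest in wildtype replicate 2, where Htr3a was highest. Of the 11 genes, Gad2 was the 1 without overlap, higher in knockout, against 8.29% of all genes tested in that direction. Log2 folds were positive for 7 and negative for 4, where 50% of all genes had a positive one. Cck (132 CPM), Cnr1 (264 CPM), Reln (108 CPM) and Adarb2 (63.5 CPM) were each at their lowest in wildtype replicate 2. The rest of the list lay within the range of the other libraries there, among them Vip at 16.6 CPM and Ndnf at 19.95 CPM. The part of interneuron content in the value of Htr3a was not tested. Ric3, a chaperone that helps to assemble the channel, had a log2 fold of 0.03 (edgeR adjusted p = 0.840).

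Per length, the receptors fell into steps. Levels are CPM per kilobase of all annotated exons merged, as a mean over the 6 libraries unless a genotype is named. Htr1a led with 11.1 CPM per kb, 2.31 times the next, and its lowest library (9.75) lay above the highest library of Htr2c (6.04). Htr2c (4.82) and Htr4 (4.30) overlapped each other, as did the neighbours Htr4, Htr7 (3.28), Htr5a (3.25) and Htr3a (3.20). Htr6 (1.81) and Htr2a (1.74) formed a lower pair that overlapped, Htr1f followed at 1.17 and Htr1b at 0.354, each below every library of the receptor before it. The place of Htr2c depends on the length used: its exons merge to 9328 bases across 7 transcripts, and its longest transcript has 4883 bases. Per kilobase of the longest transcript Htr2c stood at 9.20, with libraries from 7.28 to 11.5 that overlap those of Htr1a (9.75 to 11.8).

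**Figure D4:**
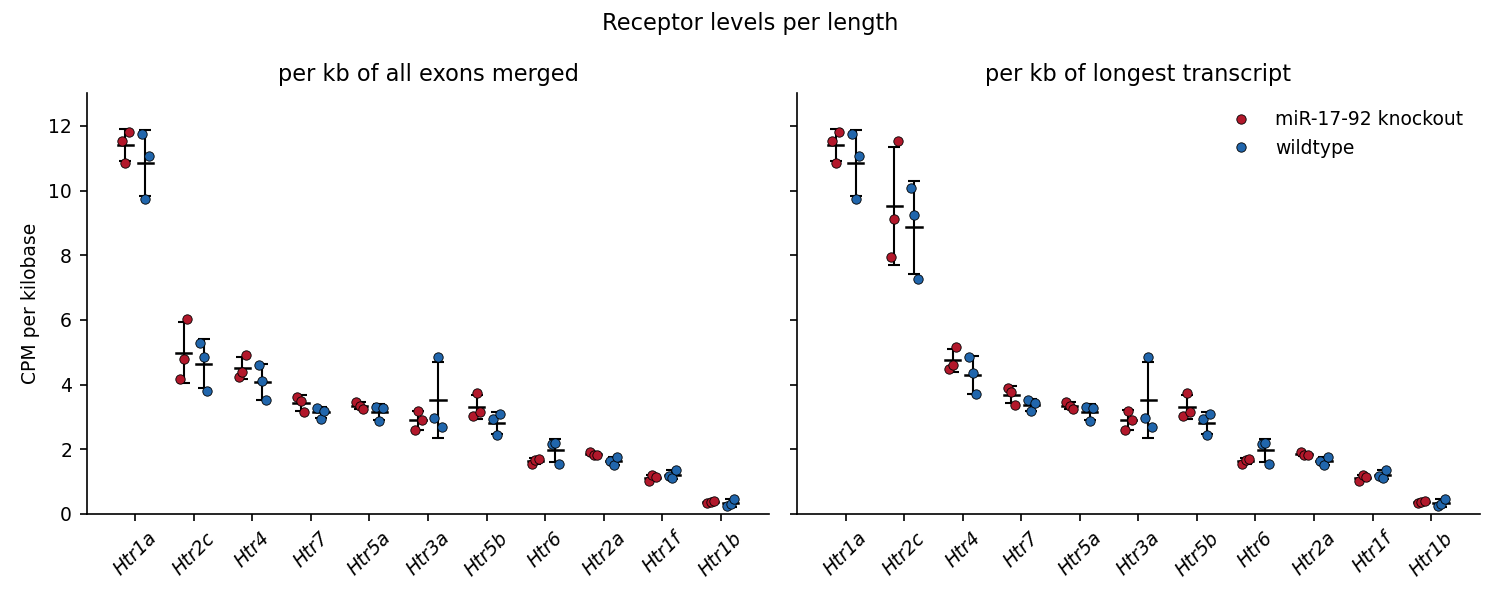
CPM per kilobase of merged exons (left) and of the longest annotated transcript (right) for the 10 receptors and Htr5b in each library, knockout points left of wildtype points, with mean and SD (n = 3 each). Htr2c lies at 4.82 on the left and 9.20 on the right, and the order of the other receptors is the same in both panels.

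Shares of the receptor pool were taken within each library. Summed over the 10 genes, the level was 35.6 ± 1.4 CPM per kb of merged exons in knockout and 34.6 ± 1.9 in wildtype (SD, n = 3 each). Gi/o-coupled receptors made up 45.7% ± 1.5 of that sum in knockout and 45.1% ± 4.4 in wildtype, Gs-coupled receptors 26.9% ± 0.60 and 26.6% ± 1.2 in that order, and Gq-coupled receptors 19.2% ± 1.8 and 18.1% ± 1.0. Htr3a made up 8.14% ± 0.83 in knockout and 10.2% ± 3.4 in wildtype, with 14.1% in wildtype replicate 2. Htr1a alone made up 32.1% ± 1.3 in knockout and 31.4% ± 2.9 in wildtype. Per kilobase of the longest transcript the Gq share was 27.9% ± 2.8 in knockout and 26.7% ± 1.8 in wildtype. For these shares the difference between genotype means is smaller than the larger SD. It is larger than that SD for Htr6, at 4.61% ± 0.10 in knockout and 5.68% ± 0.83 in wildtype per kilobase of merged exons, with wildtype replicate 3 at 4.75%.

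Of 4 further serotonin receptors outside the 10, Htr5b was the 1 with enough reads to be tested. Htr5b, a receptor gene that is intact in rodents, had 5.85, 7.21 and 6.12 CPM in knockout libraries, against 5.68, 4.73 and 5.99 CPM in wildtype libraries. Knockout replicate 2 is the highest and wildtype replicate 2 the lowest, and the log2 fold of 0.22 (SE 0.13) had an edgeR adjusted p of 0.590 and was 0.13 without wildtype replicate 2. Per length, at 3.07 CPM per kb, it stood beside Htr3a and Htr5a. Htr1d had 4 to 15 reads per knockout library and 7 to 10 per wildtype library, and Htr2b 5 to 8 and 6 to 8 in that order. Htr3b, the partner subunit of Htr3a, had 1, 0 and 0 reads in knockout libraries, against 0, 0 and 2 reads in wildtype libraries, no more than the 3 reads that a count of 0 allows by counting error.

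Genes that make, carry and break down serotonin did not pass either. Of 16 such genes 13 had enough reads, 0 passed with edgeR in either direction and 0 with DESeq2. With edgeR 1 of the 13 had an unadjusted p under 0.05, against 10.6% of all genes tested. That was Gch1, the first enzyme in the synthesis of the cofactor tetrahydrobiopterin, with 1.03, 0.797 and 1.14 CPM in knockout libraries, against 1.52, 1.83 and 1.10 CPM in wildtype libraries. Its groups overlap by the lowest wildtype library, and the log2 fold of -0.57 (SE 0.25) rests on 21 to 80 reads per library (edgeR adjusted p = 0.458). Qdpr, which regenerates the cofactor, averaged 123 ± 4.8 CPM in knockout and 134 ± 15 CPM in wildtype, and Slc18a2, the vesicular monoamine transporter, 9.36 ± 0.68 and 8.44 ± 0.42 CPM in that order (SD, n = 3 each). Their log2 folds were -0.13 and 0.15 (edgeR adjusted p of 0.597 and 0.604). Maoa and Maob, the monoamine oxidases, had log2 folds of -0.04 and 0.003. Slc6a4, the serotonin transporter, had 3 to 4 reads per knockout library and 0 to 2 per wildtype library, too few for a fold.

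Of the signalling genes behind the receptors none passed with edgeR or DESeq2. Among 12 genes of the Gi/o route 0 passed with edgeR and 0 with DESeq2, while 7 had an unadjusted p under 0.05, 4 higher and 3 lower in knockout, against 10.6% of all genes tested. For 6 of the 12 the libraries did not overlap, 3 in each direction, against 16.6% of all genes. The median log2 fold of the 12 was -0.01. Kcnj3, a subunit of the potassium channel that Htr1a opens, had 175, 179 and 177 CPM in knockout libraries, against 150, 162 and 160 CPM in wildtype libraries. The knockout values lie close together above the wildtype values, and the log2 fold was 0.17 (SE 0.04, edgeR adjusted p = 0.299, DESeq2 adjusted p = 0.0737). Kcnj6, another subunit of that channel, had 54.0, 57.4 and 56.7 CPM in knockout libraries, against 63.1, 58.4 and 65.2 CPM in wildtype libraries, a log2 fold of -0.15 (SE 0.05, edgeR adjusted p = 0.398). Kcnj6 was chosen after its values were seen. The other subunits of the channel in the list, Kcnj9 and Kcnj5, had log2 folds of -0.14 and -0.01 (edgeR adjusted p of 0.542 and 0.997). Rgs4, which speeds the switching-off of Gi/o and Gq proteins, averaged 206 ± 16 CPM in knockout and 176 ± 12 CPM in wildtype (SD, n = 3 each), with knockout replicate 1 below wildtype replicate 3, and a log2 fold of 0.23 (SE 0.07, edgeR adjusted p = 0.339). Gnai3, a Gi alpha subunit, had a log2 fold of 0.14 (SE 0.05, edgeR adjusted p = 0.360), and 0.08 with GC and length offsets.

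**Figure D5:**
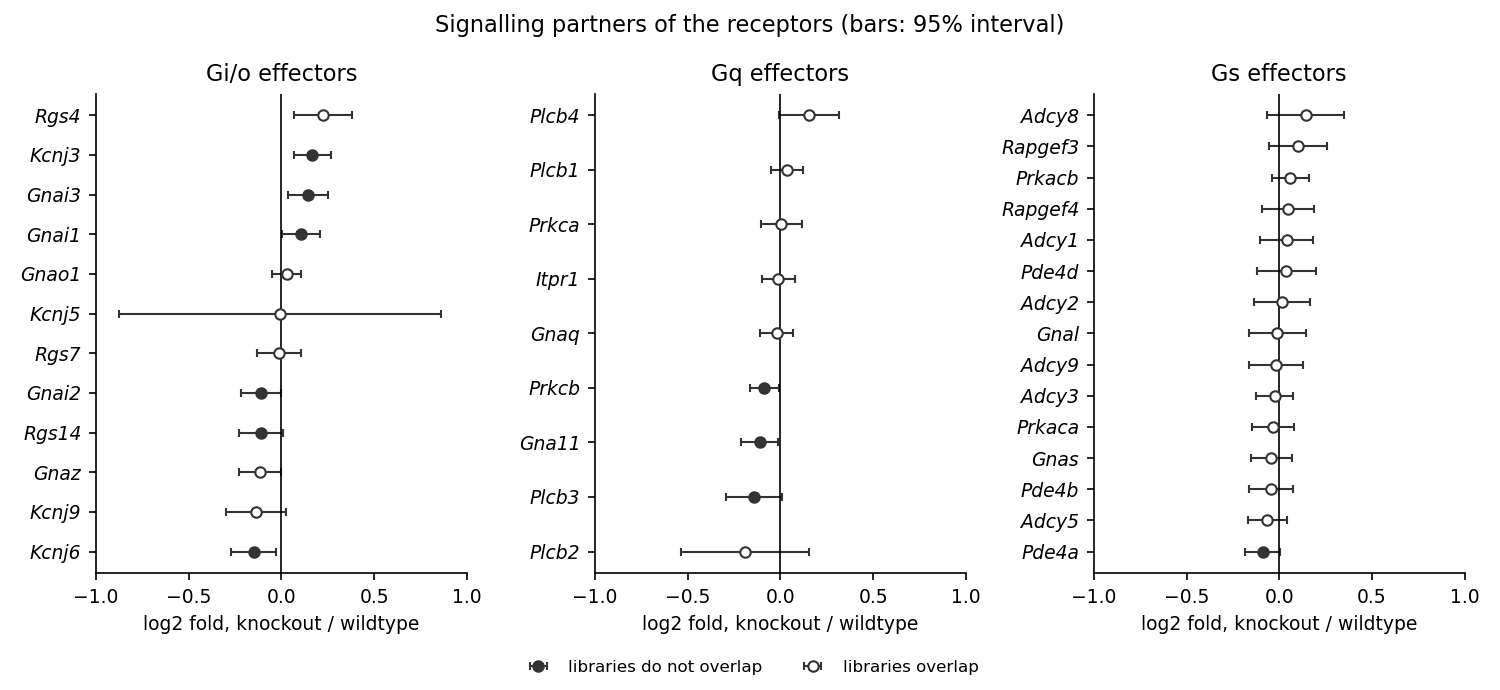
Log2 fold of knockout over wildtype (points) with the 95% interval from edgeR's fit (bars) for 12 genes of the Gi/o, 9 of the Gq and 15 of the Gs route. Filled points are genes whose knockout and wildtype libraries do not overlap: 6 in the Gi/o, 3 in the Gq and 1 in the Gs panel.

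Among 10 genes of the Gq route 0 passed with edgeR and 0 with DESeq2, and 3 had an unadjusted p under 0.05, all lower in knockout, against 5.58% of all genes in that direction. The libraries of 4 did not overlap, each lower in knockout, against 8.34% of all genes in that direction. Gna11, a Gq-class alpha subunit, and Prkcb, a protein kinase C, had log2 folds of -0.11 and -0.09 (edgeR adjusted p of 0.422 and 0.432), and that of Gna11 was -0.05 with GC and length offsets. Among 15 genes of the Gs route 0 passed with either tool and 0 had an unadjusted p under 0.05. The smallest p values of that route belonged to Pde4a, a cyclic AMP phosphodiesterase, Adcy8, an adenylyl cyclase, and Rapgef3, a cyclic AMP sensor, with log2 folds of -0.09, 0.14 and 0.10 (edgeR adjusted p of 0.493 to 0.631). With GC and length offsets the fold was -0.02 for Pde4a and 0.16 for Rapgef3, and leaving out wildtype replicate 1 gave 0.05 for Adcy8 and 0.06 for Rapgef3.

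Of 16 partners and regulators of the receptors 0 passed with edgeR and 0 with DESeq2, and 14 had a negative log2 fold with a median of -0.05, where 50% of all genes had a positive one. The libraries of 3 did not overlap (Grk2, Cc2d1a and Jakmip1), each lower in knockout, against 8.34% of all genes in that direction. The 1 with an unadjusted p under 0.05, against 10.6% of all genes, was Jakmip1, a microtubule-associated protein, at 65.3 ± 1.2 CPM in knockout and 71.5 ± 1.4 CPM in wildtype (SD, n = 3 each), a log2 fold of -0.13 (SE 0.04, edgeR adjusted p = 0.353) that was -0.07 with GC and length offsets. Dlg4, the scaffold PSD-95, had a log2 fold of -0.07 (edgeR adjusted p = 0.550). Cc2d1a, a repressor of Htr1a transcription, had one of -0.09 (edgeR adjusted p = 0.559), which became 0.005 once GC content and length entered as offsets. S100a10, the p11 protein that brings Htr1b and Htr4 to the cell surface, had 7.71, 6.95 and 8.71 CPM in knockout libraries, against 7.43, 7.82 and 9.01 CPM in wildtype libraries.

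Markers of other cell types were summed beside the receptors. Markers of CA1 pyramidal cells (7 genes) summed to between 695 and 741 CPM in knockout and between 726 and 775 CPM in wildtype, with Pou3f1 listed at 0 reads in all 6 libraries. Markers of dentate granule cells (7 genes) did not overlap, at 671 to 718 CPM in knockout against 599 to 633 CPM in wildtype. Of the 7, Calb1 was the 1 whose libraries did not overlap, where 8.29% of all genes tested did so with knockout higher. It stood at 173 ± 6.4 CPM in knockout and 126 ± 9.4 CPM in wildtype (SD, n = 3 each). The adjusted p of Calb1 was 2.8e-09 with DESeq2 and 0.0624 with edgeR. C1ql2 had a negative log2 fold of -0.15, and the libraries of Prox1, Dsp, C1ql2, Tdo2, Lct and Stxbp6 each overlapped. Of the 7 granule cell markers, 6 had a positive and 1 a negative log2 fold, with a median of 0.12, where 50% of all genes tested had a positive one. Whether the markers share a difference was not tested. Cortex markers (7 genes) did not overlap either, at 225 to 233 CPM in knockout and 210 to 218 CPM in wildtype. Of the 7, Etv1 was the 1 without overlap, higher in knockout, against 8.29% of all genes in that direction. Log2 folds were positive for 4 and negative for 3 (Rorb -0.08, Cux2 -0.13 and Rspo1 -0.23). Etv1 and Lamp5, both higher in knockout, had an unadjusted p under 0.05 with edgeR, against 5.05% of all genes in that direction. Astrocyte markers (6 genes) ran from 5076 to 5407 CPM in knockout and from 4646 to 5264 CPM in wildtype, a sum made up mostly of Slc1a2. All 6 had positive log2 folds, where 50% of all genes tested did. With edgeR 3 had an unadjusted p under 0.05, against 5.05% of all genes higher in knockout. Gjb6 (0.58) and Aqp4 (0.39) did not overlap, against 8.29% of all genes with knockout higher. With DESeq2 the adjusted p was 3.1e-10 for Gjb6 and 0.00101 for Aqp4, and with edgeR 0.0624 and 0.261 in that order. Markers of oligodendrocytes (6 genes) ran from 3075 to 3317 CPM in knockout and from 3226 to 3982 CPM in wildtype, with the highest sum in wildtype replicate 2. Of the 6, 5 had a negative and 1 a positive log2 fold, with a median of -0.15, where 50% of all genes had a positive one. Mbp did not overlap, lower in knockout, against 8.34% of all genes in that direction. Mag, also lower, was the 1 with an unadjusted p under 0.05 with edgeR, against 5.58% of all genes in that direction. The part of these levels in the receptor values was not tested.

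For the 2 receptors with the most reads, the genes with the most similar pattern over the 6 libraries were looked up among 13260 protein-coding genes, by Pearson correlation of log2(CPM + 0.1) as a description. For Htr1a these were Zfp976 (r = 0.992), Pde11a (r = 0.979) and Rpl14 (r = 0.978). For Htr2c they were Anln (r = 0.983), Tsg101 (r = 0.982) and Tas1r1 (r = 0.978). With 6 libraries such values are common: 87 genes had r above 0.9 with Htr1a and 97 with Htr2c. Pde11a, a phosphodiesterase, had 21.7, 19.7 and 25.8 CPM in knockout libraries, against 26.5, 12.9 and 19.1 CPM in wildtype libraries, with the lowest value in wildtype replicate 2 as for Htr1a.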

How the data were processed

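Hippocampal RNA of 3 knockout and 3 wildtype mice was sequenced. The authors deposited raw read counts per Ensembl gene, 1 table per mouse. The submitters' processing notes name genome build mm9 and the tools STAR 2.3.0e, HTSeq, SAMtools, DESeq2 and FastQC 0.10.1. What each tool did, which annotation was used and whether strand was counted is not given in the sources used here, and antisense and overlapping reads cannot be told apart. The 5 rows of each table that name no gene held 38.0% to 40.3% of its total and were left out. Names, lengths, GC content and 3' UTRs came from GENCODE M21 (GRCm38), which matched 32897 of 37620 identifiers. Coordinates are given for printed sequences, on GRCm38.

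All genes were fitted on genotype with edgeR 4.0.16 in R 4.3.3 (quasi-likelihood test, filterByExpr, TMM, Benjamini-Hochberg adjustment over 16432 genes, threshold 0.05). DESeq2 1.42.0 and limma-voom 3.58.1 were alternatives. Scripts were tested on simulated data. Intervals are 95% intervals of the fit, and the limit for a count of 0 is 3 reads, which covers counting error only. The litters differed, so replicate numbers pair nothing. The p-values set the difference between genotypes against the spread between mice, which includes differences between litters.

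The receptors, the gene lists and the settings were chosen with earlier results of these data known. Genes named were the receptors, the 3 with the smallest p of each pathway list, the cluster host and genes of closest pattern for the 2 receptors with the highest mean CPM. A gene of the Gq list that this rule names is counted but not reported here. Others, such as single markers, Maoa, Ric3, Adar, S100a10 and Kcnj6, were chosen after their values were seen. The alternatives tried were other size factors, filters and tests, a replicate block, offsets for GC content and length, a threshold of 0.10, another gene length, shorter seed sites, and leaving out each library.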

Additional observations from a re-analysis of the deposited data

How the results depend on the processing

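No receptor was called under any of the 16 alternatives to the fit. The number of all genes called was 0 in the main fit, 62 without a filter, 163 with DESeq2, 15 with edgeR's robust fit, 18 at an adjusted p under 0.10, and 0 to 17 when 1 library was left out (17 without knockout replicate 3, 16 without wildtype replicate 2). It was 0 under the other settings, and the cause was not tested. With the replicate block, 0 genes and 0 receptors were called. Deviations of libraries with the same number correlated at -0.10, -0.02 and -0.15 across genes. The folds of the 10 receptors and Htr5b kept their sign in 172 of 176 fits. The exceptions came from leaving out 1 library: the log2 fold of Htr1b ran from -0.062 to 0.45 (lowest without wildtype replicate 1), that of Htr2c from -0.060 to 0.22 (lowest without knockout replicate 3, and -0.01 without wildtype replicate 3) and that of Htr3a from -0.44 to 0.025 (highest without wildtype replicate 2). Among 16 other genes 254 of 256 fits kept the sign, with Mir17hg at -0.49 to 0.041 without 1 library and Cc2d1a at 0.0050 with offsets for GC content and length. Per kilobase of the longest transcript Htr2c stood at 9.20 against 4.82, and Htr7 at 3.53 against 3.28. Sites of 6 bases in place of 7 were found in 8 receptors in place of 2, where 69.89% of all 3' UTRs hold one. Htr1b had the fewest reads (44 to 107 per library), and changes in few cells were not detectable in whole tissue.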

Other observations

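Knockout replicate 2 held the highest level of Tph1, the tryptophan hydroxylase that the pineal gland uses. Tph1 had 11, 28 and 12 reads in knockout libraries 1 to 3, against 14, 11 and 8 reads in wildtype libraries 1 to 3, or 0.342, 1.06 and 0.210 CPM against 0.349, 0.251 and 0.251 CPM. The same library was highest for Otx2, a transcription factor of choroid plexus and pineal gland, with 4, 25 and 19 reads in knockout libraries, against 5, 17 and 6 reads in wildtype libraries. Neither gene passed between the genotypes with edgeR (adjusted p of 0.672 and 0.684). Both were picked out after their values were seen.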
